A study of Danio rerio with 63 samples.

Results

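The glutamate receptor genes are the rows of the count table whose symbol starts with gria, grin, grik, grid or grm followed by a digit. This rule found 26 genes of 15418 in the table, and it uses the symbol alone and no measured value. They were measured by BRB-seq, a barcoded bulk RNA sequencing of transcript 3′ ends in which each molecule is counted once by its unique molecular identifier (UMI). The libraries came from adult zebrafish brains dissected into olfactory bulb (OB), telencephalon (Tel) and hypothalamus, 21 libraries for each region and 63 in all, and each library was made from 3 pooled fish. For each region there were 5 pools of male mutants, 6 of male wild type (WT), 4 of female mutants and 6 of female WT fish. The mutants carry a frameshift deletion in cyp19a1b, the gene of brain aromatase, the enzyme that makes estrogens from androgens in radial glia. The study describes brain aromatase in them as lowered and not absent. They come from a single TALEN-made line, the WT fish are of the AB strain, and no further line or treatment was included, so an effect of the mutation and of other differences between the line and the AB fish cannot be told apart. A library is the unit of replication, and p-values measure the spread between pools of fish.

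Glutamate is the main excitatory transmitter of the vertebrate brain, and its receptors are of 2 kinds. Ionotropic receptors are tetrameric cation channels: AMPA receptors (gria) carry fast excitation, NMDA receptors (grin) need glutamate and a co-agonist together with depolarisation and admit calcium, and kainate receptors (grik) modulate transmission. Metabotropic receptors (grm) are G-protein coupled: group I couples to phospholipase C and is mostly postsynaptic, while groups II and III lower cyclic AMP and often sit on presynaptic terminals. Zebrafish keep many of these genes as pairs of paralogues, marked a and b.

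Of the 26 genes 25 are described here. They were 8 AMPA subunits (gria1a, gria1b, gria2a, gria2b, gria3a, gria3b, gria4a and gria4b), 2 genes of the obligatory NMDA subunit GluN1 (grin1a, grin1b), 2 of the glutamate-binding NMDA subunit GluN2 (grin2bb, grin2ca), the kainate subunit grik5, and 11 metabotropic receptors: grm1b, grm5a and grm5b of group I, grm2a, grm2b and grm3 of group II, and grm4, grm6a, grm6b, grm8a and grm8b of group III. The last is grid2ipb, whose symbol fits the rule but whose product is no receptor itself. Together they held 12851 of 22028107 UMIs, 0.0583% of all, and between 1 and 952 UMIs in a library, with a median of 120. These are sparse counts. Between 30 UMIs (grm2b) and 4322 UMIs (grin1b) were counted per gene over the 63 libraries. Levels are given as CPM, UMIs scaled to a common library size. Genes of the family without a row in the count table enter no level or share, and the table had no row for the NMDA subunit GluN3. The study excluded reads that mapped to several genomic locations, so reads that match both paralogues of a pair equally well would count for neither.

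Library totals ran between 21444 and 1033008 UMIs, with a median of 281160, and were lower in mutant than in WT groups: group medians of hypothalamus libraries were 217705 in male mutants, against 583930 in male WT, and 175074 in female mutants, against 536042 in female WT. In 7 libraries the total was under 0.3 of the median of the region, and 6 of them were mutant pools. The cyp19a1b transcript does not check the labels, since the tags lie at the 3′ end and the deletion in an early exon. It averaged 888 ± 367 CPM in mutant Tel (SD, n = 9), against 1449 ± 316 CPM in WT Tel (n = 12), and did not pass the edgeR test in any of the 6 genotype comparisons (lowest adjusted p = 0.303, male hypothalamus, the only comparison of the 6 with an unadjusted p of at most 0.05).

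The OB libraries went against their label. Markers of olfactory bulb neurons were at or near 0: over the 21 OB libraries tbx21 had 1 UMI, th 8 and lhx5 10, and eomesa averaged 5.89 ± 15.1 CPM, against 557 ± 87.8 CPM in Tel libraries. Genes of olfactory sensory neurons, which lie in the nose, were high: ompa averaged 286 ± 143 CPM in OB, against 12.2 ± 8.91 CPM in Tel, and cnga2b 263 ± 75.2 CPM in OB, against 4.37 ± 5.44 CPM in Tel. The 13 microglia markers in the table summed to 5625 to 9923 CPM in OB libraries, against 741 to 1208 CPM in Tel. Among them cd74a averaged 4760 ± 826 CPM and cd74b 2010 ± 342 CPM in WT OB, so the sum rests largely on these genes. Of 8 tested in WT OB over Tel 6 were called higher, 1 lower and 1 not called, against 31.1% higher and 26.8% lower over all genes tested. The 11 neuron markers summed to 555 to 1657 CPM in OB, against 6315 to 10489 CPM in Tel and 8324 to 19370 CPM in hypothalamus. In WT OB over Tel 1 of 11 tested telencephalon markers was called higher and 8 lower. In WT OB over hypothalamus 5 of them were called higher and 5 lower, against 30.9% higher and 28.6% lower over all genes tested. The libraries are called OB below as they are labelled. Of 11 tested telencephalon markers 10 were called lower in WT hypothalamus over Tel and 0 higher, among them foxg1a, a transcription factor gene of the forebrain, which averaged 10.1 ± 9.20 CPM in WT hypothalamus, against 175 ± 48.2 CPM in WT Tel. Of 8 tested hypothalamus markers 5 were called higher in WT hypothalamus, the neuropeptide genes avp, oxt, pmch and trh and the transcription factor gene otpb, and 3 were called lower, the transcription factor genes fezf1, lhx6 and lhx8a. A single Tel library, male mutant B2, held 1805 CPM of hypothalamus markers, against 109 to 252 CPM in the other Tel libraries.

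Summed over the 26 genes, glutamate receptor transcripts were sparse in OB and plentiful in the other regions. The sums averaged 76.1 ± 20.7 CPM in WT OB, 917 ± 263 CPM in WT hypothalamus and 665 ± 136 CPM in WT Tel (SD, n = 12 each). The lowest WT hypothalamus library had 568 CPM and the highest WT Tel library 995 CPM, so those regions overlapped, while the highest WT OB library, at 119 CPM, lay below all of them. In mutants the sums averaged 66.7 ± 34.5 CPM in OB, 785 ± 172 CPM in hypothalamus and 712 ± 294 CPM in Tel (n = 9 each). The last spread rests on Tel female mutant A1, the shallowest library of all, whose 46 receptor UMIs came to 1391 CPM. Without the 7 low-total libraries, mutant Tel averaged 638 ± 166 CPM (n = 7).

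**Figure D1:**
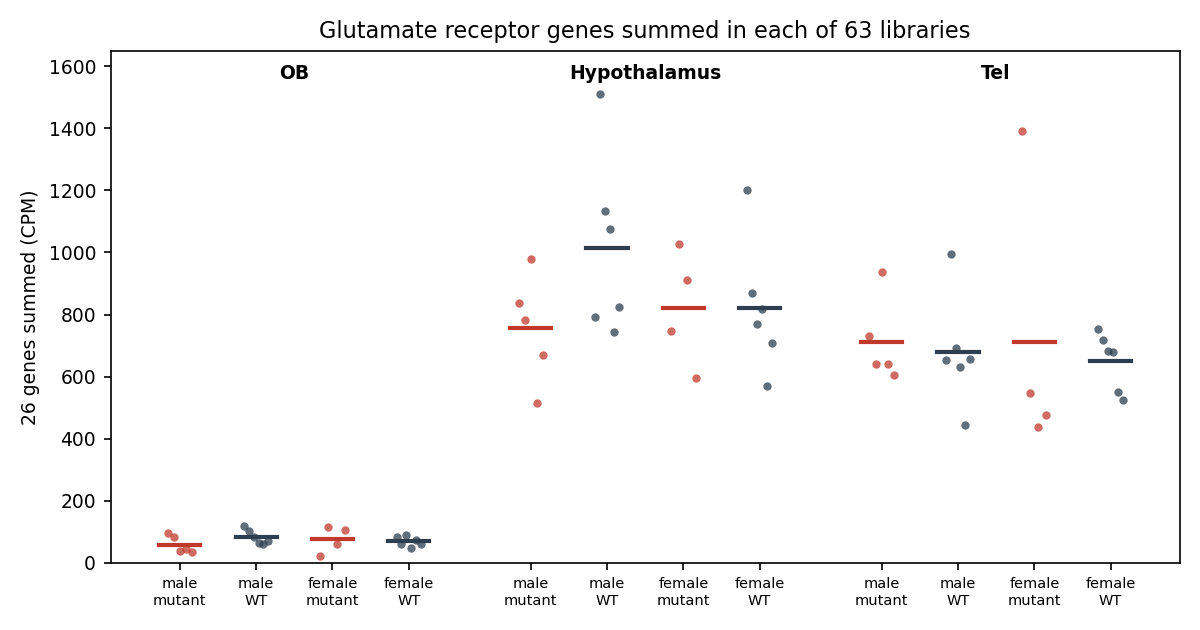
CPM summed over the 26 glutamate receptor genes (vertical axis) in each library, by region, sex and genotype (points, pools of 3 fish; bars, group means; red, mutant; dark blue, WT). The OB libraries all lie at or below 119 CPM and all Tel and hypothalamus libraries at or above 437 CPM; Tel female mutant A1, with 46 receptor UMIs, stands at 1391 CPM.

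The neuron markers moved with this difference between regions. Per 1000 UMIs of the 11 neuron markers, the receptor genes had 63.3 ± 13.6 UMIs in WT OB, 71.1 ± 16.5 in WT hypothalamus and 80.3 ± 16.8 in WT Tel (SD, n = 12 each), and the ranges of the 3 regions overlapped. The markers themselves were not uniform: of 10 tested in WT hypothalamus over Tel 5 were called higher, 1 lower and 4 not called. One of those higher, nefma, averaged 413 ± 56.8 CPM in WT hypothalamus and 31.7 ± 15.3 CPM in WT Tel. Ratios to the markers thus depend on the markers chosen. In bulk samples fewer cells of a type and less RNA per cell cannot be told apart. The part of the neuron content of the pieces in the differences given next was not tested, and values per neuron marker are given beside the tested genes of the comparison of hypothalamus with Tel.

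To ask how the receptor repertoire differs between the hypothalamus, a region of neuroendocrine cells, and the telencephalon, WT libraries of both sexes were set against each other in an edgeR quasi-likelihood fit of all 63 libraries. A gene was called when its Benjamini-Hochberg adjusted p over all genes tested was at most 0.05 and its change at least 1.5-fold. Of the 26 genes, 10 passed the filter on low counts and 16 did not. In WT hypothalamus over Tel, 6 of the 10 were called higher and 1 lower, against 8.52% of all 6727 genes tested called higher and 5.69% called lower. Because a gene can pass the filter through the region where it is high, these counts describe the tested genes only. Without the filter 10 of the 26 were called higher and 2 lower, against 5.47% and 3.02% of all 15053 genes.

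The gene of the NMDA subunit GluN2C, grin2ca, showed the widest separation. It had between 12.1 and 85.9 CPM with a median of 47.9 in WT hypothalamus, against 0 to 10.2 CPM with a median of 4.90 in WT Tel, so that no pool of one region reached the other. The log2 change was 2.93 ± 0.36 (SE), 7.63-fold, with an adjusted p of 7.9e-10 by edgeR. Per 1000 neuron-marker UMIs it averaged 3.55 ± 1.59 in WT hypothalamus and 0.572 ± 0.459 in WT Tel. The other GluN2 gene in the table, grin2bb, averaged 7.43 ± 4.67 CPM in WT hypothalamus and 10.4 ± 8.26 CPM in WT Tel, and did not pass the filter. Of the 2 genes, grin2ca made up 85.7% of the 399 GluN2 UMIs pooled over WT hypothalamus libraries and 39.7% of the 63 pooled over WT Tel libraries. By library its share was 83.3 ± 13.8% in WT hypothalamus (47.83% to 100%, n = 12). Only 3 of 12 WT Tel libraries had enough GluN2 UMIs, with 41.2 ± 13.6% (27.27% to 54.55%). The ranges overlapped, and these shares were not tested.

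Both GluN1 genes, whose product every NMDA receptor contains, were called higher in WT hypothalamus. For grin1b the libraries held 235 to 585 CPM with a median of 342 in hypothalamus and 131 to 315 CPM with a median of 201 in Tel, a log2 change of 0.76 ± 0.17 (edgeR adjusted p = 3.0e-04). For grin1a they held 22.4 to 77.04 CPM with a median of 43.1 in hypothalamus and 3.75 to 50.6 CPM with a median of 24.0 in Tel, a log2 change of 0.86 ± 0.25 (adjusted p = 0.0073). The pools of the 2 regions overlapped for each. Per 1000 neuron-marker UMIs the levels lay close together, at 26.7 ± 5.91 in hypothalamus and 25.2 ± 7.01 in Tel for grin1b, and at 3.95 ± 1.47 and 3.41 ± 1.89 in the same order for grin1a. The balance of the paralogues was alike as well: grin1a took 13.0 ± 4.50% of GluN1 UMIs in WT hypothalamus and 11.6 ± 5.78% in WT Tel (n = 12 each).

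Among AMPA subunits the direction depended on the gene. The subunit gene gria4a was called higher in WT hypothalamus, with 14.8 to 87.5 CPM and a median of 41.0, against 0 to 30.4 CPM and a median of 16.8 in WT Tel (log2 change 1.46 ± 0.29, adjusted p = 8.8e-05 by edgeR). In contrast, gria1a was called lower, with 23.2 to 66.9 CPM and a median of 45.5 in hypothalamus, against 21.02 to 120 CPM and a median of 69.4 in Tel (log2 change −0.71 ± 0.22, adjusted p = 0.0148). This call was lost when the male WT pool A2 was left out (adjusted p = 0.0575) and with 2 of the 9 other settings tried. Its paralogue gria1b had a log2 change of −0.34 ± 0.21 (adjusted p = 0.315), and gria2b, whose mammalian counterpart keeps edited AMPA channels from passing calcium, had −0.51 ± 0.23 (adjusted p = 0.122). It was called without the female WT pool A1 (−0.67, adjusted p = 0.0358). Among the other called genes, grin1b lost its call on rlog values with limma, and grin1a and gria4a with thinned counts.

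On the scale of 1000 neuron-marker UMIs gria4a averaged 3.37 ± 1.16 in WT hypothalamus and 1.96 ± 1.25 in WT Tel (SD, n = 12 each). The other AMPA subunit genes tested had lower means in hypothalamus on this scale. For gria1a they were 3.47 ± 1.26 in hypothalamus and 8.03 ± 2.81 in Tel, for gria1b 4.47 ± 1.64 in hypothalamus and 8.17 ± 3.99 in Tel, and for gria2b 6.77 ± 3.10 in hypothalamus and 14.8 ± 5.24 in Tel.

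Read as shares of all gria UMIs, which do not depend on library size, the AMPA repertoires of the regions differed in the same genes. The share of gria4a was 16.2 ± 3.42% in WT hypothalamus (SD, n = 12), against 4.83 ± 3.42% in WT Tel (n = 11 libraries with enough gria UMIs). The shares of gria1a were 16.5 ± 2.96% in hypothalamus and 23.1 ± 4.67% in Tel, those of gria2b 31.3 ± 7.71% and 38.5 ± 8.84%, and those of gria1b 22.6 ± 9.22% and 24.5 ± 9.17%, in the same order. Only the ranges of gria4a, 9.33% to 21.1% in hypothalamus and 0% to 10.9% in Tel, were nearly apart. The gria2a, gria3b and gria4b genes each stayed at or below 4.93% on average in both regions, and gria3a averaged 4.12 ± 1.98% in hypothalamus and 1.39 ± 1.07% in Tel. These shares were not tested.

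**Figure D2:**
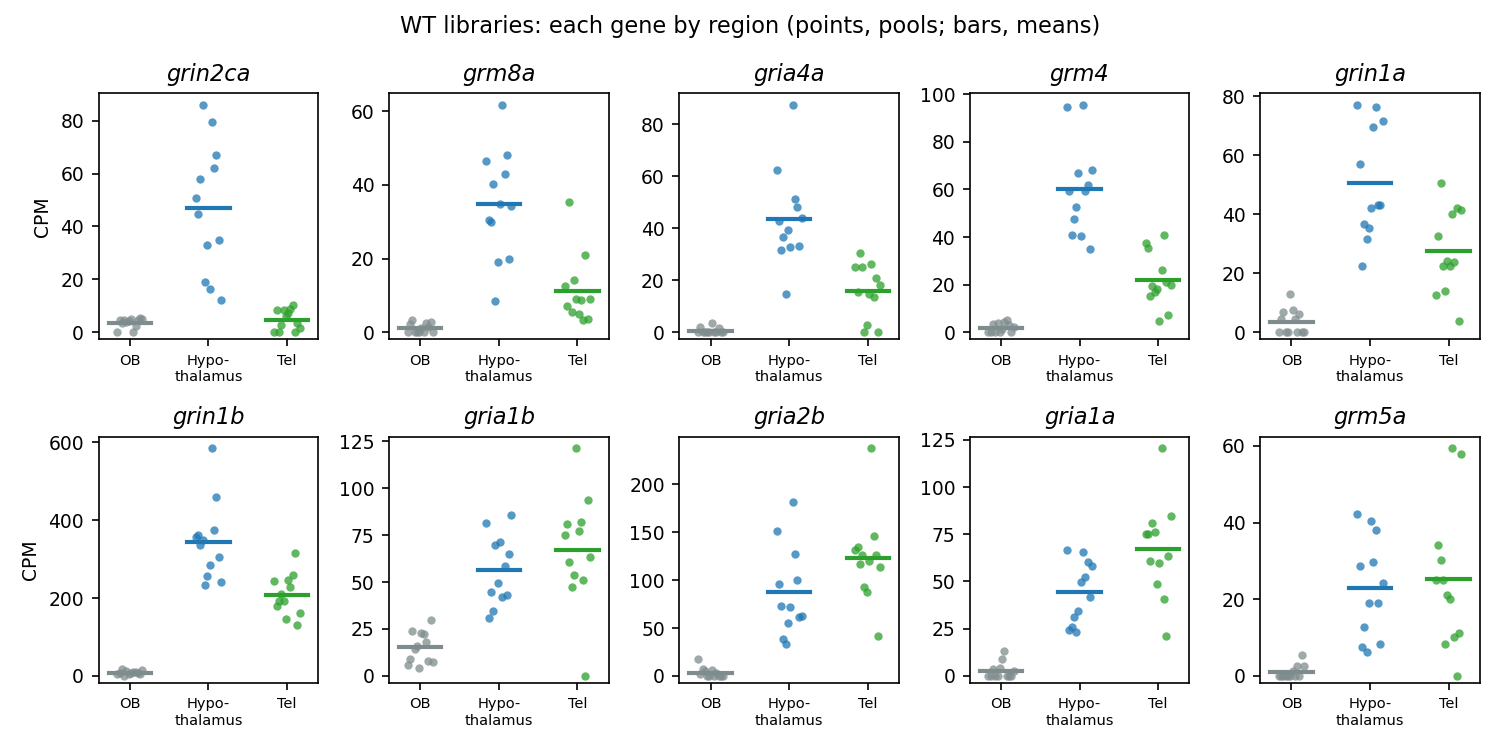
CPM (vertical axes, each on its own scale) of the 10 tested genes in the 12 WT libraries of each region (points, pools; bars, means; grey, OB; blue, hypothalamus; green, Tel). grin2ca lies at 12.1 CPM or more in every hypothalamus library and at 10.2 CPM or less in every Tel library, while the other genes overlap between hypothalamus and Tel.

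**Figure D3:**
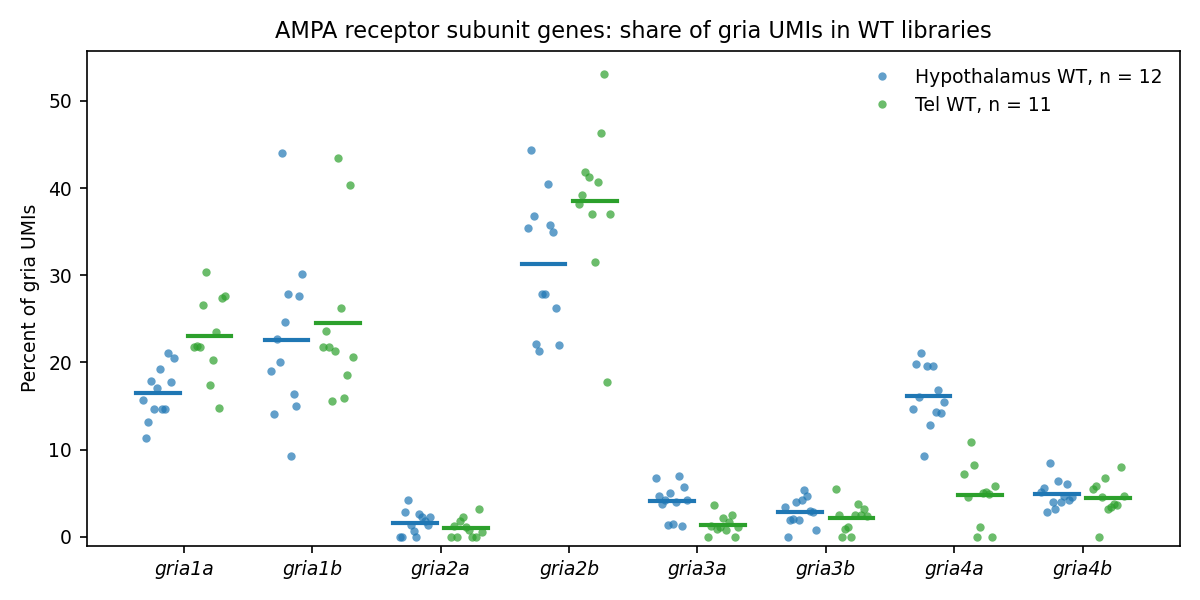
Share of each AMPA subunit gene in all gria UMIs of a library, in percent (vertical axis), for WT hypothalamus (blue, n = 12) and WT Tel (green, n = 11) libraries; bars are means. The gria4a share averages 16.2% in hypothalamus and 4.83% in Tel.

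The group III metabotropic receptors, which in mammals restrain release from presynaptic terminals, included the other clear regional differences. In WT hypothalamus grm8a had 8.45 to 61.7 CPM with a median of 34.5, against 3.40 to 35.4 CPM with a median of 8.88 in WT Tel (log2 change 1.86 ± 0.28, adjusted p = 1.9e-07 by edgeR). For grm4 the values were 34.9 to 95.5 CPM with a median of 59.4 in hypothalamus and 4.99 to 40.8 CPM with a median of 19.7 in Tel (log2 change 1.44 ± 0.24, adjusted p = 1.8e-06). Per 1000 neuron-marker UMIs grm4 averaged 4.70 ± 1.44 in hypothalamus and 2.65 ± 1.38 in Tel, and grm8a 2.67 ± 0.99 and 1.38 ± 1.18 in the same order. Their paralogue grm8b had a median of 9.23 CPM in hypothalamus and 10.4 CPM in Tel and was not tested under the filter. Of group I, grm5a did not differ beyond its spread, with a median of 21.6 CPM in hypothalamus and 23.1 CPM in Tel (log2 change −0.30 ± 0.30, adjusted p = 0.577). Its median per 1000 neuron-marker UMIs was 1.77 in hypothalamus and 2.80 in Tel.

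Without the filter, 4 further genes described here were called in WT hypothalamus over Tel. The group I receptor gene grm1b averaged 10.5 ± 5.70 CPM in hypothalamus and 1.55 ± 2.33 CPM in Tel (log2 change 2.48 ± 0.46, adjusted p = 2.2e-05 by edgeR), where it had 7 UMIs over 12 libraries. The AMPA subunit gene gria3a (log2 change 1.39, adjusted p = 0.0145) and the receptor gene grm6b (1.30, adjusted p = 0.0277), whose mammalian counterpart serves retinal bipolar cells, were also higher. The gene grid2ipb was lower (−1.19, adjusted p = 0.0439), with 4.30 ± 3.44 CPM in hypothalamus and 9.65 ± 6.36 CPM in Tel. The kainate subunit gene grik5 averaged 15.6 ± 7.70 CPM in hypothalamus and 11.7 ± 6.55 CPM in Tel (adjusted p = 0.682 without the filter). The group II receptors grm2a, grm2b and grm3, autoreceptors in mammals, averaged 6.00, 1.42 and 3.52 CPM in hypothalamus and 3.35, 2.73 and 3.16 CPM in Tel, and none was called.

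In mutant libraries the same comparison called 5 genes higher and 2 lower in hypothalamus, against 5.32% of all genes tested called higher and 3.37% called lower. Here grin2ca had a median of 41.2 CPM in mutant hypothalamus, against 7.68 CPM in mutant Tel (log2 change 2.54 ± 0.54, adjusted p = 4.1e-04 by edgeR), and grm8a 29.7 CPM against 9.95 CPM in the same order (1.77 ± 0.49, adjusted p = 0.0097). The lower genes were gria2b (−1.30 ± 0.35, adjusted p = 0.0069) and gria1a (−1.02 ± 0.34, adjusted p = 0.045), and gria4a was not called (0.86 ± 0.48, adjusted p = 0.320). Tel male mutant B2, the library with hypothalamus markers, was kept here and in the Tel means below. It had 38.4 CPM of grm4, against 0 to 19.9 CPM in the other mutant Tel libraries, and 30.7 CPM of gria4a, against 0 to 60.5 CPM. Without the low-total libraries 3 of these calls were left, and between 3 and 6 when any single mutant pool was left out, with 4 or fewer without female mutant A1, A2, B1 or C1, or male mutant B1, C1 or C2. Whether the region difference itself depends on genotype was not tested.

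The OB libraries held few receptor UMIs, 455 over 21 libraries, and the genes were lower there than in either other region. In WT OB over Tel 9 of the 10 tested genes were called lower and none higher, against 26.8% and 31.1% of all genes tested, and in WT OB over hypothalamus all 10 tested genes were called lower, against 28.6% called lower and 30.9% called higher. In mutants the counts were 9 lower in OB over Tel, against 25.6% lower and 27.2% higher over all genes, and 10 lower in OB over hypothalamus, against 28.1% lower and 26.8% higher. None of the 26 genes passed the filter in OB libraries alone, so the 10 tested genes entered through Tel or hypothalamus. Their direction in OB was thus largely set by the filter, and these counts describe the tested genes only. With the pool of fish as a block 9 genes were again called in mutant OB over Tel, grin2ca among them (adjusted p = 0.0369) and grm8a not (adjusted p = 0.06). Without the filter 17 of 26 were lower in WT OB over Tel, against 18.5% of all genes lower and 21.7% higher, and 22 of 26 in WT OB over hypothalamus, against 22.7% lower and 20.9% higher, and none of the 26 was higher.

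The lowest values relative to Tel were those of gria2b, with 0 to 18.1 CPM and a median of 1.13 in WT OB, against 41.2 to 237 CPM and a median of 123 in WT Tel (log2 change −5.17 ± 0.39, adjusted p = 2.0e-18 by edgeR), and gria1a, with 0 to 13.4 CPM and a median of 0 in WT OB, against 21.02 to 120 CPM in WT Tel (−4.77 ± 0.39, adjusted p = 3.7e-17). For grin1b, 0 to 17.2 CPM were found in WT OB, against 131 to 315 CPM in WT Tel (−4.53 ± 0.25, adjusted p = 1.5e-25) and 235 to 585 CPM in WT hypothalamus (−5.29 ± 0.24, adjusted p = 6.9e-30). None of these genes had overlapping pools. The same held for gria4a in WT OB over hypothalamus, with 0 to 3.81 CPM in OB and 14.8 to 87.5 CPM in hypothalamus (−5.05 ± 0.47, adjusted p = 3.4e-15), and for grm4, with 0 to 5.23 CPM in OB and 34.9 to 95.5 CPM in hypothalamus (−4.80 ± 0.36, adjusted p = 1.9e-18). For no comparison was it counted how many of all genes lie apart in this way. The tested gene not called in WT OB over Tel was grin2ca, which averaged 3.67 ± 1.87 CPM in WT OB and 4.82 ± 3.86 CPM in WT Tel (log2 change −0.50 ± 0.55, adjusted p = 0.434).

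Relative to neuron markers the OB repertoire was uneven. Per 1000 neuron-marker UMIs gria1b had 13.1 ± 8.19 in WT OB, 4.47 ± 1.64 in WT hypothalamus and 8.17 ± 3.99 in WT Tel, whereas grin1b had 6.93 ± 3.81 in WT OB, 26.7 ± 5.91 in WT hypothalamus and 25.2 ± 7.01 in WT Tel. Pooled over WT libraries gria1b took 54.3% of 127 gria UMIs in OB, 21.2% of 2064 in hypothalamus and 22.6% of 1375 in Tel. These ratios rest on few OB molecules, and they were not tested.

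The study asked what the cyp19a1b mutation changes in the brain, and no glutamate receptor gene was called between mutant and WT in the main test. In Tel, where 4 of the 26 genes passed the filter (gria1a, gria1b, gria2b and grin1b), 0 were called in males, against 0.0225% of all 4437 genes tested, and 0 in females, against 2.46%. In hypothalamus, where 12 passed, 0 were called in males, against 1.93% of 6463 genes, and 0 in females, against 3.56%. On simulated hypothalamus counts this test recovered 29.0% of 2-fold changes in males and 29.5% in females, so changes of that size can be missed. At an unadjusted p of at most 0.05 there were 1 of 4 in male Tel, against 9.65% of all genes, 0 of 4 in female Tel, against 12.5%, 5 of 12 in male hypothalamus, against 14.9%, and 0 of 12 in female hypothalamus, against 12.1%. DESeq2 called 1 gene, in male hypothalamus, and 0 in the other 3 comparisons. Without the filter, 1 of all 26 genes was called in male hypothalamus, grm4, against 0.879% of all genes, and 11 of 26 had an unadjusted p of at most 0.05, against 10.2%. In OB 0 of the 26 genes passed the filter, and without it 0 were called in either sex, against 0.275% of all genes in males and 1.34% in females. At an unadjusted p of at most 0.05 there were 5 of 26 in OB males, against 7.33%, and 1 of 26 in OB females, against 7.58%.

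The gene nearest to a call was grm4 in male hypothalamus. It had 21.7, 21.2, 32.9, 25.98 and 24.7 CPM in the 5 male mutant pools, against 34.9 to 95.5 CPM with a median of 60.7 in the 6 male WT pools. Every mutant pool lay below every WT pool, although the mutant values rest on 4 to 7 UMIs each. The log2 change was −1.25 ± 0.35 (95% interval −1.93 to −0.57), with an adjusted p of 0.0558 by edgeR. Over the 9 other settings the adjusted p ran between 0.0321 and 0.0912, and it passed with DESeq2 (0.0422), without the filter (0.0321) and in the fit with the letter of the pool code as a blocking term (0.0351). Leaving out male WT A1 or male WT C1 also brought it past the threshold (lowest adjusted p = 0.0458). These were the male WT pools with the lowest grm4, at 40.4 and 34.9 CPM, so leaving either out widens the difference by itself. Per 1000 neuron-marker UMIs grm4 averaged 2.15 ± 0.95 in male mutants (n = 5) and 4.53 ± 1.201 in male WT (n = 6), with ranges of 1.12 to 2.91 and 2.64 to 5.85, which overlapped.

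In female hypothalamus grm4 had 40.4, 96.4, 23.6 and 47.5 CPM in the 4 mutant pools, against 41.0 to 94.5 CPM with a median of 56.0 in the 6 WT pools (log2 change −0.17 ± 0.33, adjusted p = 0.914). The pools overlapped. The difference between the sexes in the change from WT to mutant, female minus male, was 1.08 ± 0.49 on the log2 scale, with an unadjusted p of 0.0351 and an adjusted p of 0.463, so it did not pass the test. No gene was called in this interaction, against 2.04% of all genes in hypothalamus and 0.496% in Tel; 1 of 12 and 0 of 4 genes had an unadjusted p of at most 0.05.

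The other genes of male hypothalamus at an unadjusted p of at most 0.05 were grin1a, gria1b, gria2b and gria1a, and none was called. For grin1a the 5 male mutant pools had 17.3, 36.4, 32.9, 33.4 and 34.5 CPM, against 42.2 to 76.2 CPM with a median of 56.4 in the 6 male WT pools (log2 change −0.87 ± 0.32, adjusted p = 0.179 by edgeR). The groups did not overlap, although the mutant values rest on 4 to 12 UMIs each. Per 1000 neuron-marker UMIs they overlapped, with 0.894 to 3.84 in male mutants and 3.27 to 5.83 in male WT. How many of all genes lie apart in this way was not counted. For gria2b the male mutant pools had 86.6, 27.3, 65.9, 22.3 and 39.5 CPM, against 61.5 to 181 CPM with a median of 85.7 in WT (−1.09 ± 0.42, adjusted p = 0.201), and for gria1a 43.3, 39.4, 16.5, 40.8 and 24.7 CPM, against 41.5 to 65.6 CPM with a median of 55.4 in WT (−0.61 ± 0.29, adjusted p = 0.322). Both of these overlapped with WT. The AMPA subunit gene gria1b lay on the other side, with 73.6, 94.0, 173, 77.9 and 123 CPM in male mutants, against 41.8 to 85.9 CPM with a median of 61.6 in male WT (0.78 ± 0.28, adjusted p = 0.176).

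Over the 12 tested genes of male hypothalamus the median log2 change was −0.59, with 9 below 0 and 3 above, while the median over all 6463 genes was 0.01. In female hypothalamus the median was −0.15, with 8 below 0, against 0.04 over all genes. Of WT male over female in hypothalamus, the median of the same 12 genes was 0.36, with 9 above 0, against −0.002 over all genes. Male WT thus stood highest in hypothalamus. The sums of the 26 genes averaged 757 ± 175 CPM in male mutants, against 1013 ± 291 CPM in male WT, and 821 ± 189 CPM in female mutants, against 822 ± 213 CPM in female WT. In Tel the medians of the 4 genes were 0.13 in males and 0.11 in females, against 0.03 and −0.00095 over all genes in the same order. These medians are descriptions: the genes share libraries. Neuron markers in hypothalamus summed to 8940 to 19370 CPM in male mutants and 10878 to 16332 CPM in male WT, hypothalamus markers to 587 to 1206 CPM in male mutants and 348 to 1151 CPM in male WT, and oligodendrocyte markers to 2776 to 4529 CPM in male mutants and 2707 to 4193 CPM in male WT. The 4 glutamatergic neuron markers in the table, which are sparse, summed to 0 to 33.35 CPM with a mean of 18.0 ± 13.0 in male mutants, against 27.5 to 45.75 CPM with a mean of 33.9 ± 6.38 in male WT. Olfactory sensory neuron markers averaged 27.5 ± 12.2 CPM in male mutant hypothalamus, against 51.3 ± 12.7 CPM in male WT, and red blood cell markers 4494 ± 2312 CPM, against 7395 ± 3961 CPM in male WT. The groups overlapped for each, and the part of these markers in the receptor values was not tested.

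**Figure D4:**
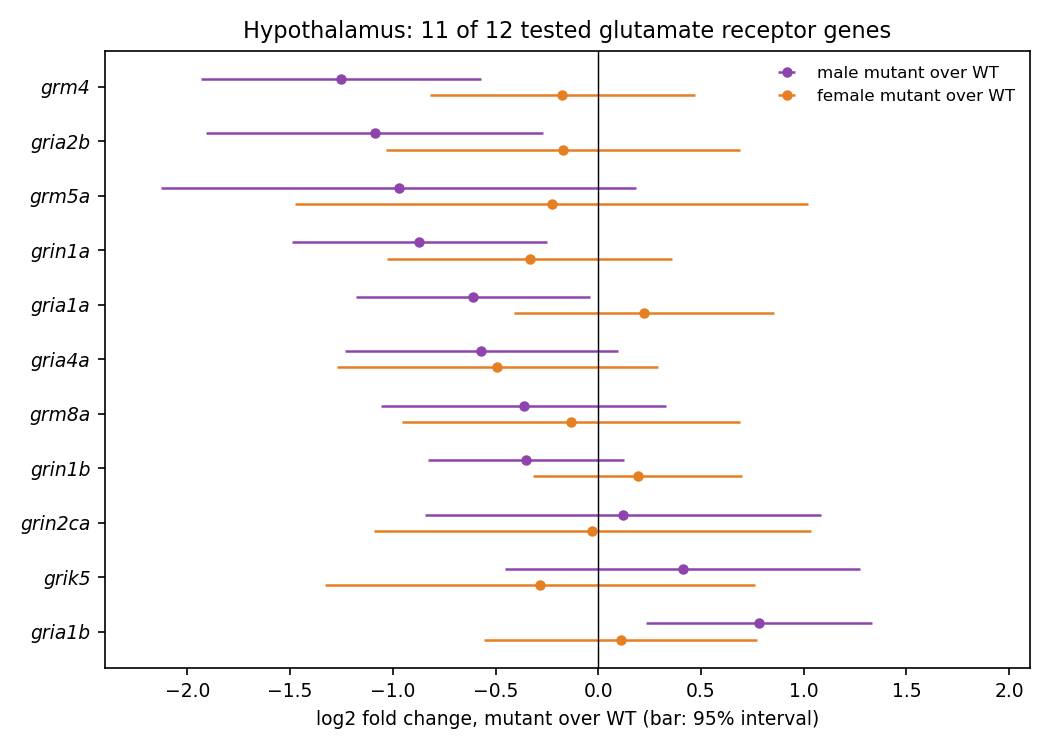
log2 fold change of mutant over WT (horizontal axis; bars, 95% intervals) for 11 of the 12 tested glutamate receptor genes of the hypothalamus, in males (purple) and females (orange). Of these 11 male estimates 8 lie below 0, with grm4 lowest at −1.25 and gria1b highest at 0.78, and no gene was called in either sex.

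**Figure D5:**
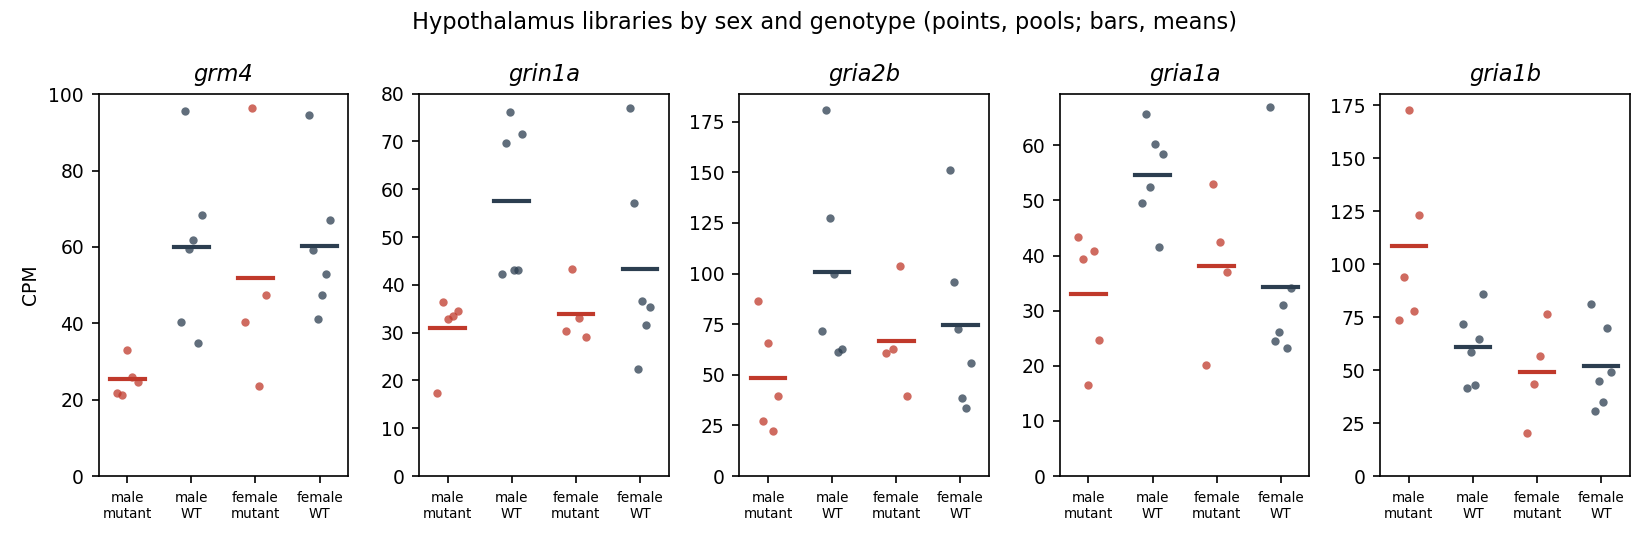
CPM (vertical axes, from 0) of 5 genes in hypothalamus libraries by sex and genotype (points, pools; bars, means; red, mutant; dark blue, WT). In males the mutant pools of grm4 and grin1a lie below all WT pools, and those of gria2b, gria1a and gria1b overlap with WT.

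The gene with the lowest p of male Tel was again gria1b, with 152, 99.2, 69.1, 94.5 and 167 CPM in the 5 male mutant pools, against 0 to 93.7 CPM with a median of 70.3 in male WT. The log2 change was 0.76 ± 0.32, with an adjusted p of 0.427 by edgeR. In female Tel the lowest p was that of gria2b (log2 change 0.23 ± 0.43, adjusted p = 0.916), whose estimate turned to −0.03 without female mutant A1 and to −0.47 without the low-total libraries. In female hypothalamus it was that of gria4a (−0.49 ± 0.40, adjusted p = 0.705).

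Among the NMDA subunit genes of the hypothalamus, the group means were alike for grin2ca and differed more for grin1b and grin1a. The grin2ca pools of male mutants ran between 3.71 and 86.6 CPM, so alike means do not show equal levels. The most abundant gene, grin1b, averaged 288 ± 79.5 CPM in male mutant hypothalamus, against 375 ± 128 CPM in male WT, and 355 ± 123 CPM in female mutant hypothalamus, against 316 ± 55.0 CPM in female WT. Its paralogue grin1a averaged 30.9 ± 7.71 CPM in male mutants, against 57.6 ± 16.4 CPM in male WT, and 33.9 ± 6.51 CPM in female mutants, against 43.4 ± 20.0 CPM in female WT. For grin2ca all means lay between 45.4 and 48.6 CPM, at 46.5 ± 31.7 CPM in male mutants, against 45.4 ± 28.2 CPM in male WT, and 47.8 ± 21.4 CPM in female mutants, against 48.6 ± 22.9 CPM in female WT. In Tel, grin1b averaged 183 ± 60.7 CPM in male mutants, against 224 ± 67.4 CPM in male WT, and 212 ± 144 CPM in female mutants, against 194 ± 32.7 CPM in female WT. Tel grin1a was sparse, at 16.8 ± 10.8 CPM in male mutants, against 28.9 ± 15.2 CPM in male WT, and 4.29 ± 8.57 CPM from 2 UMIs in female mutants, against 26.1 ± 14.1 CPM in female WT. No Tel group exceeded 8.47 ± 6.47 CPM of grin2ca, the male mutant value, and the other groups averaged 5.33 ± 4.08 CPM (male WT), 4.59 ± 5.32 CPM (female mutant) and 4.30 ± 3.93 CPM (female WT).

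The AMPA subunit genes varied more between groups. In male mutant hypothalamus gria1a averaged 32.9 ± 11.7 CPM, against 54.6 ± 8.59 CPM in male WT, and in female mutant hypothalamus 38.2 ± 13.7 CPM, against 34.3 ± 16.5 CPM in female WT. For gria1b the means were 108 ± 41.0 CPM in male mutants, against 60.9 ± 16.99 CPM in male WT, and 49.2 ± 23.6 CPM in female mutants, against 51.8 ± 20.0 CPM in female WT. The means of gria2b were 48.3 ± 27.3 CPM in male mutants, against 101 ± 46.9 CPM in male WT, and 66.7 ± 27.0 CPM in female mutants, against 74.6 ± 43.9 CPM in female WT. In both sexes gria4a had the lower mean in mutant hypothalamus. It averaged 33.1 ± 9.73 CPM in male mutants, against 49.5 ± 20.1 CPM in male WT (log2 change −0.57), and 25.1 ± 13.3 CPM in female mutants, against 37.9 ± 15.5 CPM in female WT, and it was called in neither sex.

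In Tel gria2b stood highest among AMPA subunit genes, at 145 ± 55.5 CPM in male mutants, against 131 ± 63.3 CPM in male WT, and 155 ± 83.6 CPM in female mutants, against 115 ± 20.0 CPM in female WT. Tel gria1a averaged 78.5 ± 44.4 CPM in male mutants, against 65.1 ± 34.7 CPM in male WT, and 103 ± 95.9 CPM in female mutants, against 69.4 ± 12.3 CPM in female WT. The wide spread of female mutants goes with their few molecules, 27 gria1a UMIs over 4 pools. Tel gria1b averaged 116 ± 41.5 CPM in male mutants, against 61.2 ± 33.5 CPM in male WT, and 45.8 ± 39.9 CPM in female mutants, against 73.1 ± 26.7 CPM in female WT. Tel gria4a was low in all groups, at 11.2 ± 12.7 CPM in male mutants, against 15.6 ± 8.89 CPM in male WT, and 25.2 ± 25.8 CPM in female mutants, against 16.5 ± 12.6 CPM in female WT.

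The kainate subunit gene grik5 averaged 18.5 ± 7.73 CPM in male mutant hypothalamus, against 15.2 ± 11.3 CPM in male WT, and 16.9 ± 16.2 CPM in female mutant hypothalamus, against 16.1 ± 1.22 CPM in female WT. It was called in neither sex, and in Tel it had at most 29 UMIs in any group. Tel grik5 averaged 16.8 ± 8.18 CPM in male mutants, against 10.9 ± 7.79 CPM in male WT, and 36.7 ± 56.9 CPM from 6 UMIs in female mutants, against 12.5 ± 5.66 CPM in female WT. The gene grid2ipb stayed under 20 CPM in every group. Its hypothalamus means were 10.4 ± 9.79 CPM in male mutants, against 4.17 ± 3.77 CPM in male WT, and 6.23 ± 2.59 CPM in female mutants, against 4.43 ± 3.44 CPM in female WT, and its Tel means 10.9 ± 8.66 CPM in male mutants, against 7.00 ± 5.95 CPM in male WT, and 18.1 ± 21.4 CPM in female mutants, against 12.3 ± 6.07 CPM in female WT.

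Metabotropic receptors were spread over a wide range of levels, with grm4 holding the most UMIs in hypothalamus, 534 over its libraries. In male mutants, where the grm4 pools ran between 21.2 and 32.9 CPM, grm8a had the higher mean. In hypothalamus grm8a averaged 30.2 ± 10.2 CPM in male mutants, against 40.3 ± 14.2 CPM in male WT, and 28.0 ± 8.30 CPM in female mutants, against 29.1 ± 13.8 CPM in female WT. The group I gene grm5a averaged 14.8 ± 12.8 CPM in male mutant hypothalamus, against 26.6 ± 12.1 CPM in male WT, and 14.8 ± 14.2 CPM in female mutant hypothalamus, against 19.4 ± 13.8 CPM in female WT. The group II gene grm2a averaged 3.47 ± 4.75 CPM in male mutants, against 5.71 ± 5.00 CPM in male WT, and 3.82 ± 5.01 CPM in female mutants, against 6.29 ± 3.39 CPM in female WT, with at most 24 UMIs in a group. In Tel grm4 averaged 19.6 ± 11.2 CPM in male mutants, against 20.1 ± 13.1 CPM in male WT, and 4.89 ± 9.79 CPM from 4 UMIs in female mutants, against 23.8 ± 9.97 CPM in female WT. Tel grm8a averaged 11.5 ± 7.53 CPM in male mutants, against 8.48 ± 6.60 CPM in male WT, and 8.78 ± 14.5 CPM in female mutants, against 14.0 ± 10.99 CPM in female WT. Tel grm5a averaged 28.4 ± 5.39 CPM in male mutants, against 26.4 ± 25.7 CPM in male WT, and 8.94 ± 10.6 CPM in female mutants, against 24.0 ± 8.87 CPM in female WT. These last 3 genes, and grm2a, which had 1 to 11 UMIs in a Tel group, did not pass the filter in Tel.

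In OB gria1b was the only one of these genes to average over 10 CPM in both genotypes of both sexes, at 15.3 ± 14.9 CPM in male mutants, against 18.1 ± 8.84 CPM in male WT, and 12.5 ± 12.7 CPM in female mutants, against 12.3 ± 7.36 CPM in female WT. OB grin1b averaged 7.94 ± 6.39 CPM in male mutants, against 8.94 ± 3.40 CPM in male WT, and 17.8 ± 14.4 CPM from 7 UMIs in female mutants, against 7.76 ± 6.07 CPM in female WT. The other 11 genes named here had between 0 and 12 UMIs in each OB group, and gria1a, grin1a, grm4 and grm5a had 0 UMIs over the 5 male mutant OB pools.

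Between the sexes no glutamate receptor gene was called. Of WT male over female, 0 of 4 were called in Tel, against 0.0451% of all genes, and 0 of 12 in hypothalamus, against 0.0155%, with 0 and 1 genes at an unadjusted p of at most 0.05. That gene was gria1a, with 41.5 to 65.6 CPM in male WT hypothalamus and 23.2 to 66.9 CPM in female WT hypothalamus (log2 change 0.62 ± 0.23, adjusted p = 1.00 by edgeR). Of mutant male over female, 0 of 4 were called in Tel, against 1.19%, and 0 of 12 in hypothalamus, against 2.38%, with 0 and 2 genes at an unadjusted p of at most 0.05. These were grm4 (−1.12 ± 0.42, adjusted p = 0.252) and gria1b (0.90 ± 0.36, adjusted p = 0.302). DESeq2 called 0 in all of these comparisons.

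Partner genes of the receptors were taken from 5 lists of genes by function. The calls of each list in WT hypothalamus over Tel stand against 8.52% of all genes tested called higher and 5.69% called lower. Each list had only 3 to 11 tested genes, and no list was tested as a set. AMPA receptors are carried and tuned by auxiliary subunits, and 6 of 29 listed genes were tested in WT hypothalamus over Tel, of which 0 were called higher and 3 lower. They were cacng8a, a TARP, with 141 ± 38.9 CPM in WT hypothalamus and 320 ± 78.8 CPM in WT Tel (log2 change −1.18 ± 0.19, adjusted p = 1.2e-06 by edgeR), shisa9b, an AMPA receptor modulator (−0.92, adjusted p = 2.9e-05), and olfm1b, a secreted AMPA receptor partner (−0.63, adjusted p = 4.9e-05). The median of the 6 was −0.27, against 0.01 over all genes. Of the postsynaptic scaffold 1 of 6 tested genes was lower, homer1b, which links group I metabotropic receptors to calcium stores (−1.21 ± 0.15, adjusted p = 2.0e-09), and 0 were higher, with a median of 0.06. Of calcium/calmodulin kinase II genes 1 of 7 was lower, camk2a (−0.85 ± 0.21, adjusted p = 0.0015), and 0 higher, with a median of −0.19. Of glutamate transporters and enzymes 2 of 11 were higher, the glutamate transporter gene slc1a1 (1.00 ± 0.18, adjusted p = 1.8e-05) and the glutamine transporter gene slc38a2 (0.82 ± 0.16, adjusted p = 7.3e-05), and 0 lower, with a median of 0.02. Of the supply of the NMDA co-agonists glycine and D-serine 1 of 3 was lower, shmt1 (−1.46 ± 0.36, adjusted p = 0.0016), and 0 higher, with a median of 0.07. The calls of camk2a, olfm1b and shmt1 were lost in 2, 1 and 1 of the 9 other settings in this order, and those of the other 5 genes in none.

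Between genotypes 3 of these partner genes were called, all lower and all in female mutants. Most calls over all genes tested had this direction and sex. In females 107 genes were called lower and 2 higher in Tel, 198 lower and 32 higher in hypothalamus, and 106 lower and 11 higher in OB. In males 1 gene was called in Tel, 125 in hypothalamus and 1 in OB. Over all genes tested in females, 2.46% were called in Tel, 3.56% in hypothalamus and 117 of 4520 in OB. Of the kinase list 1 of 6 tested genes was called in female Tel, 1 of 7 in hypothalamus and 1 of 3 in OB. Of the auxiliary subunits 1 of 6 was called in female Tel. Of the transporters and enzymes 1 of 11 was called in female hypothalamus and 1 of 8 in female OB. The kinase gene camk2d2 averaged 463 ± 66.0 CPM in female mutant Tel (n = 4), against 4226 ± 848 CPM in female WT Tel (n = 6), a log2 change of −3.07 ± 0.50 (adjusted p = 9.97e-04 by edgeR), and 481 ± 80.5 CPM in female mutant hypothalamus, against 3220 ± 578 CPM in female WT (−2.72 ± 0.45, adjusted p = 4.1e-04). It was also lower in female mutant OB, with 133 ± 76.4 CPM, against 2624 ± 775 CPM in WT (−4.27 ± 0.71, adjusted p = 8.8e-04). The pools of the 2 genotypes did not overlap in any of these. The study names camk2d2 among the most changed genes shared by both sexes across the brain regions. It tested rlog values with limma and a filter of its own, so its calls and the edgeR values here come from unlike tests. In males the log2 change of camk2d2 here was −0.85 in Tel (edgeR adjusted p = 0.51), −0.97 in hypothalamus (adjusted p = 0.215) and −1.16 in OB (adjusted p = 0.472). Male mutant hypothalamus had 1113 ± 1058 CPM, against 2243 ± 1018 CPM in male WT. The male mutant pools ran between 385 and 2898 CPM with a median of 601, against 911 to 3326 CPM with a median of 2265 in male WT. The difference between the sexes, female minus male, did not pass the test (−2.22, −1.75 and −3.11, adjusted p = 0.0936, 0.148 and 0.0968 in the same order of regions).

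The gene of glutamine synthetase, glula, whose product turns glutamate into glutamine in glia, was lower in female mutant hypothalamus, with 5692 ± 3358 CPM, against 16117 ± 4026 CPM in female WT (log2 change −1.46 ± 0.29, adjusted p = 0.0021 by edgeR). The highest mutant pool, at 10490 CPM, lay below the lowest WT pool, at 10801 CPM. In males it had 14411 ± 2951 CPM in mutant hypothalamus, against 12203 ± 3267 CPM in WT (0.27 ± 0.26, adjusted p = 0.682), and this difference between the sexes passed the test, at −1.73 ± 0.38 (adjusted p = 0.0115). The other 10 radial glia markers in the table summed to 6218 to 10654 CPM in female mutant hypothalamus, against 7570 to 12096 CPM in female WT, and the groups overlapped. In female mutant OB glula was called lower as well (−1.94 ± 0.54, adjusted p = 0.0498), a call lost in 4 of the 9 other settings and without any of 7 of the 10 pools, and the difference between the sexes there was −1.002 (adjusted p = 0.705).

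The TARP gene cacng8a was lower in female mutant Tel, with 90.7 ± 61.2 CPM, against 305 ± 88.3 CPM in female WT Tel (log2 change −1.48 ± 0.38, adjusted p = 0.0325 by edgeR). This call was lost in 2 of the 9 other settings and without any of 7 of the 10 pools. In males the log2 change was −0.23 (adjusted p = 0.872), and the sexes did not differ by the test (−1.25, adjusted p = 0.343). In males 0 genes of the 5 lists were called in any region, against 0.0225% of all genes tested in Tel, 1.93% in hypothalamus and 1 of 4520 genes in OB.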

How the data were processed

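The authors deposited 1 table of UMI counts per gene for 63 BRB-seq libraries, each from 3 pooled fish; the submitters' processing notes name BWA 0.7.4.4 and the build danRer11. The values used are those raw counts, with no normalization before deposit. Counts were analysed with edgeR 4.0.16 in R 4.3.3 (filterByExpr, TMM, quasi-likelihood F test). Each region was fitted on its 21 libraries as 4 groups of sex and genotype, and region comparisons on all 63 libraries, averaged over sexes. The methods count as many pools in all as each region has libraries, so a code within 1 sex and genotype was taken to mark the same fish in every region. Their deviations from group means correlated between 0.007 and 0.289. Libraries of other fish with the same code in a region correlated between −0.214 and 0.411, so these correlations do not check the pairing. The pool was a block in an alternative. Changes are log2 with SE; CPM use TMM library sizes. Called means an adjusted p of at most 0.05 and at least 1.5-fold (interaction: adjusted p only). Totals ran between 21444 and 1033008 UMIs, and depth limits single low genes; shares and CPM carry counting error only where no SD is given. DESeq2 1.42.0, limma 3.58.1 on rlog values, other size factors, no filter, blocks, thinned counts and left-out libraries were alternatives; those for partner genes were added after seeing the data. The steps were tested on counts simulated from real means, totals and dispersions, with 200 genes changed. Of 2-fold changes 82.5% were recovered in WT hypothalamus over Tel. In hypothalamus mutant over WT 29.5% were recovered in females and 29.0% in males, and 90.0% of 4-fold changes in males. No within-group pair agreed within sampling noise (chi-square per degree of freedom 1.47 to 11.0 over 138 pairs), so all were kept. Genes given with full values are, by rule, the member with most UMIs in each class, the called members with the largest changes in WT region comparisons whose pools do not overlap, members called between genotypes or sexes and the lowest p of each genotype comparison; others were named after their values were seen. Members, lists and tests were chosen with earlier results of these data known. Gene names match the RefSeq table of GRCz12tu for all 26 members. 1 member is not reported here by name; it stays in all counts and sums.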

Additional observations from a re-analysis of the deposited data

Results flagged for a closer look

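Among 113 groups of 4 to 6 libraries in which a named gene, or the sum of the 26 genes, reached at least 5 UMIs in a library, 9 had a library far from the others by Dixon's ratio; chance alone flags about 1 in 20 groups. The sum of the 26 genes in Tel female mutant A1 was 1390.7 CPM from 46 UMIs, against 437 to 548 CPM in the other 3 pools. Several others rest on 1 to 7 UMIs: grm8a had 21.02 CPM from 1 UMI in Tel male WT B2, 35.4 CPM from 7 UMIs in Tel female WT B1 and 40.4 CPM from 4 UMIs in hypothalamus female mutant A1, and grid2ipb had 10.97 CPM from 6 UMIs in hypothalamus female WT B2.

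In hypothalamus male WT A2, gria4a stood at 87.5 CPM (44 UMIs), against 33.0 to 51.2 CPM in the other pools, and grik5 at 37.8 CPM (19 UMIs), against 8.31 to 13.8 CPM. In hypothalamus female WT A1, gria1a stood at 66.9 CPM (46 UMIs), against 23.2 to 34.2 CPM. In hypothalamus male mutant A1, grin1a was low at 17.3 CPM (4 UMIs), against 32.9 to 36.4 CPM. The receptor sums also differed by the letter of the pool code in every region. Medians of WT pools A, B and C were 1035, 946 and 725 CPM in hypothalamus, 735, 681 and 538 CPM in Tel, and 93.7, 73.8 and 65.2 CPM in OB. In mutants they were 836, 912 and 596 CPM in hypothalamus, 729, 642 and 604 CPM in Tel, and 95.5, 59.3 and 44.5 CPM in OB. Male mutants had 1 pool of A, 2 of B and 2 of C, against 2 of each in male WT. What the letter stands for is not given in the sources used here.

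The change from WT to mutant fish in the glutamine synthetase gene glula in hypothalamus differed between the sexes by the interaction test, female minus male −1.73 ± 0.38 on the log2 scale (edgeR adjusted p = 0.0115). Female mutants had 5692 ± 3358 CPM, against 16117 ± 4026 CPM in female WT, and male mutants 14411 ± 2951 CPM, against 12203 ± 3267 CPM in male WT.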

How the results depend on the processing

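Among WT OB comparisons of named genes, all kept direction and call in the 9 other settings except grm8a in OB over Tel, lost with thinned counts, while in mutant OB over Tel grm8a lost its call in 6 and turned in 1. Genotype and mutant results rest on few UMIs. In WT hypothalamus over Tel 12 genes were called without the filter and 4 with thinned counts, against 7, and 6 to 8 when each pool was left out. In mutants 3 of 7 were left without the low-total libraries, and 3 to 6 with a pool left out. For OB over hypothalamus 22 were called in WT and 16 in mutants without the filter, for WT OB over Tel 17, and for mutant OB over Tel 4 with thinned counts and 6 to 9 with a pool left out. In male hypothalamus mutant over WT, 1 gene (grm4) was called with DESeq2, without the filter or with the letter of the pool code as a blocking term, and 0 to 1 with a pool left out. Of estimates, grm8a in mutant OB over Tel turned to 0.0271 with thinned counts, and gria2b in female Tel, mutant over WT, to −0.0089 without the filter, −0.0298 with thinned counts and −0.4749 without low-total libraries, and to between −0.0330 and 0.6237 with a pool left out. The cause was not tested. In 548 of 588 left-out fits of single genes the call and direction held.

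With the pool of fish as a replicate block, 7 genes were called in WT hypothalamus over Tel and 9 in WT OB over Tel, as without it, and among the 10 tested genes of the region comparisons it changed only 2 calls, both in mutant OB over Tel, where grm8a was lost (−2.08, adjusted p = 0.06) and grin2ca gained (adjusted p = 0.0369). Between genotypes the code is only a number: with it as a replicate block 0 were called in male hypothalamus, as without it, and same-coded libraries correlated between −0.129 and 0.313.

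Alternatives for the partner genes were chosen after seeing the data. The camk2d2 calls in female mutants held in all settings in hypothalamus and OB, and in Tel in all but the one without low-total libraries. The glula call in female mutant hypothalamus held throughout, as did its difference between the sexes, at −2.21 to −1.32.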
